A study of Mus musculus with 8 samples.

Results

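Notch receptors and genes of the HES/HEY family were measured in cultured mouse cochlear explants. The 10 genes were the 4 receptor genes Notch1, Notch2, Notch3 and Notch4 and the 6 HES/HEY genes Hes1, Hes5, Hes6, Hey1, Hey2 and Heyl. The 6 are called effector genes here by family, although the protein of Hes6 opposes HES1. They were taken by symbol from a table of 42775 genes, and each symbol was found once. The 4 CHIR99021 libraries came from explants given 10 uM CHIR99021 for 6 h. The 4 control libraries came from explants that received the vehicle, DMSO. CHIR99021 inhibits the kinase GSK3 and thereby activates Wnt signaling. All explants were wild-type Swiss Webster, and each group had 2 female and 2 male libraries by their titles. The labels describe E12.5 cochleas cultured for 24 h before the 6 h treatment, and also name the source as E14.0 cultures. The study calls the samples biological replicates, but the labels do not say which cochleas or litters each one pooled, and p-values measure the spread between these libraries.

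Notch is a receptor that is cut when a ligand on a neighboring cell binds it. The freed intracellular part enters the nucleus, joins the DNA-binding protein RBPJ and a Mastermind coactivator, and switches on genes such as Hes1, Hes5, Hey1 and Hey2. These encode basic helix-loop-helix repressors. In the cochlea, Notch signaling first helps to set up the prosensory domain, with JAG1 as the ligand, and later keeps neighboring cells from all becoming hair cells.

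The upstream sequences of Hes5 and Hey2 are shown because both genes had a higher mean CPM in CHIR99021 and both hold the core letters of the RBPJ binding site. They were picked by these traits together, so the matches do not link the response to the site. RefSeq promoter windows on GRCm38.p6 were matched for 7 of the 10 genes, with 8 windows because Hes6 has a pair of starts. Hes1, Hey1 and Heyl had no entry. The 250 bases before each start were searched on both strands for TGGGAA, the core of the RBPJ site, and for CTTTGA, a core of the TCF/LEF site. These motifs do not overlap each other. Capitals mark TGGGAA or its reverse complement TTCCCA. The Hes5 window is chr4:154960673-154960922 on the plus strand and the Hey2 window is chr10:30842784-30843033 on the minus strand.
Hes5: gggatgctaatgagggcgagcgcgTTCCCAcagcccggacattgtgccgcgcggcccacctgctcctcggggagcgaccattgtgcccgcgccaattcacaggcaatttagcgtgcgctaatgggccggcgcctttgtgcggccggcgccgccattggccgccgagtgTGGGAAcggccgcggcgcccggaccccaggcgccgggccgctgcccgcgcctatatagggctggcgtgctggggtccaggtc
Hey2: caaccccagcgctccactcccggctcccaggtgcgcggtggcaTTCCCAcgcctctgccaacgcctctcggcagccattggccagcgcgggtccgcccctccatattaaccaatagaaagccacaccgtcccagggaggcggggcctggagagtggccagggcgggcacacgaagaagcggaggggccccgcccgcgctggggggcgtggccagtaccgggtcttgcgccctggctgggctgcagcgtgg
Hes5 had 2 matches, at -226 on the minus strand and -82 on the plus strand relative to the start. Hey2 had 1 match, at -207 on the minus strand. The windows of the receptor genes and both windows of Hes6 had 0 matches. Of 32851 promoter windows of this length, 21.6% held TGGGAA at least once and 2.77% at least 2 times. CTTTGA was in none of the 8 windows and in 13.8% of all windows. A match describes the letters and is not evidence that a factor bound there.

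The libraries held 64905007 to 75434130 assigned reads in CHIR99021 and 66483661 to 89269187 assigned reads in control, and the deposited unit was CPM, the reads of a gene scaled to the total of its library. Replicates 1 and 4 of both groups had a read for 22838 to 24249 genes, and replicates 2 and 3 for 20301 to 20698. The treatment comparison was therefore also made within replicates 1 and 4 and within replicates 2 and 3. Each of these fits had 2 libraries per group, 1 female and 1 male. With so few libraries, a gene that does not pass there is not shown to be unchanged. The comparison used limma on a log2(CPM + 1) scale and took in the 14264 genes that averaged 1 CPM or more. All fold changes from limma are on this scale and are smaller than CPM ratios for genes of low expression. An adjusted p below 0.05 was reached by 33.7% of these genes. The CHIR99021 level was the higher one for 12.3% and the lower one for 21.4%. After TMM scaling, which corrects for a few abundant genes taking a larger share of the reads, 17.1% were higher and 16.5% lower, and the median over all genes tested moved to 0.0087 on the log2 scale, against -0.047 without it. Of 7 genes chosen as Wnt readouts 7 rose, with Tcf7 and Nkd1 at the smallest p-values. The 7 were chosen with earlier results of these data known, so their count is not an independent check. Axin2, a feedback inhibitor of the pathway, averaged 266 ± 20.2 CPM in CHIR99021 and 87.8 ± 9.99 CPM in control (SD, n = 4 each). The explants expressed the markers of their labelled tissue, with 12 of 12 cochlear and prosensory genes and 8 of 8 epithelial genes above the 1 CPM limit. So were 9 of 10 markers of periotic mesenchyme, 11 of 12 of neurons and 7 of 9 of glia. The levels below are therefore those of a mixed tissue and not of the epithelium alone. In bulk RNA, fewer cells of a type and less RNA per cell cannot be told apart.

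After 6 h of CHIR99021, the receptor genes Notch2 and Notch4 fell and the effector genes Hes1 and Hey2 rose, Hey2 only at the edge of the test. Notch1 and Notch3, the most abundant receptor genes by CPM, and Hes6, Hey1 and Heyl did not pass the test. Hes5 was expressed below the limit for testing. Of the 9 genes tested, 4 passed, which is 44.4% against 33.7% of all genes tested. With so few genes, a share of this size is not a result about the family. edgeR on recovered reads and limma with the replicate number as a block also called 4 of them, against 19.6% and 41.4% of all genes those fits tested. Within replicates 1 and 4 alone 3 of the 9 passed, against 23.1% of all genes, and within replicates 2 and 3 alone 0 of the 9, against 11.6%. The median log2 fold change of the 9 genes was 0.012, against -0.047 over all genes tested. For 3 of the 9 tested genes, Notch2, Notch4 and Hes1, the CHIR99021 libraries lay wholly to one side of the control libraries, as they did for 33.3% of all genes tested. Among all genes tested, 12.7% were wholly higher and 20.6% wholly lower in CHIR99021. The groups also did not overlap for Hes5.

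**Figure D1:**
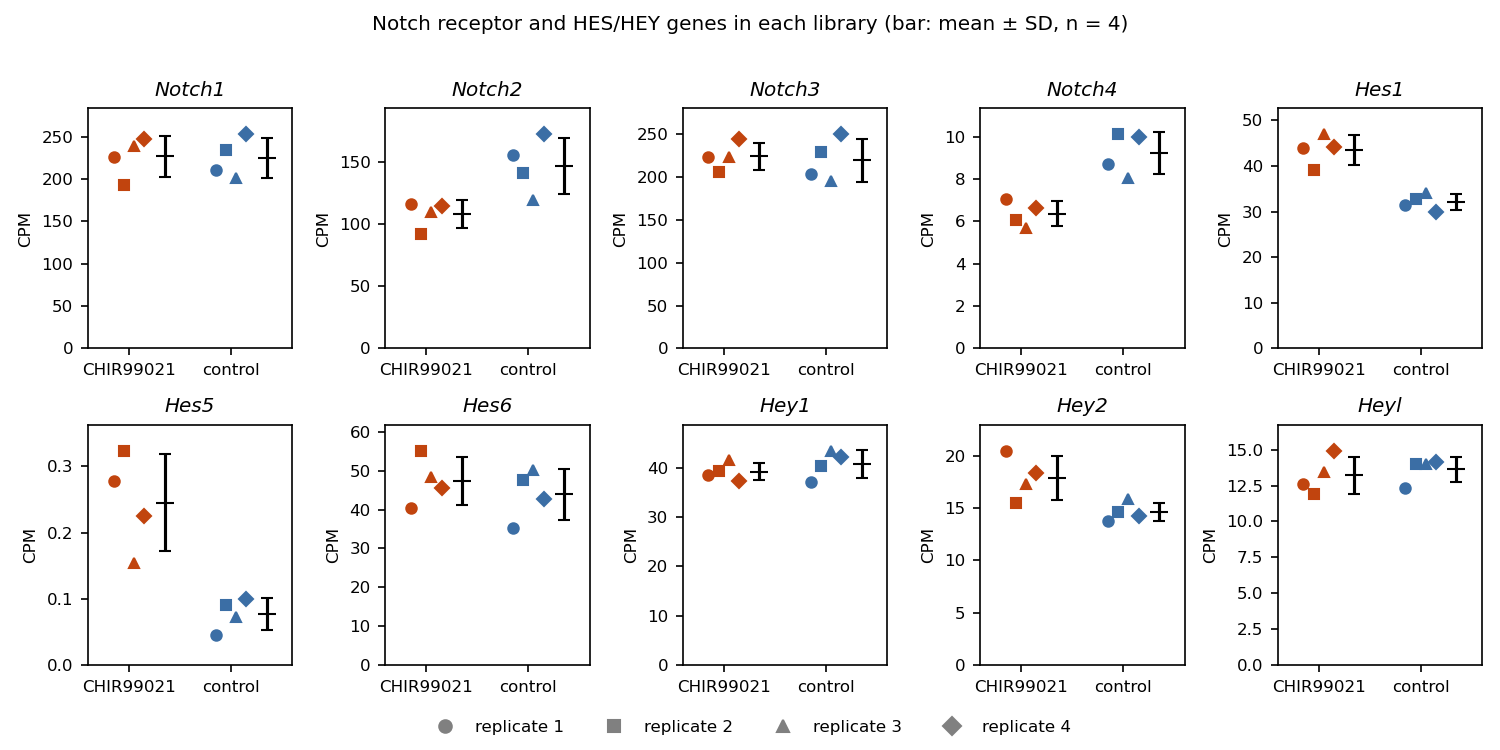
CPM of each of the 10 genes in every library (points, with a shape for each replicate number), with CHIR99021 left of control and the mean ± SD of 4 libraries beside each group; each vertical axis starts at 0. The CHIR99021 libraries lie wholly below the control libraries for Notch2 and Notch4 and wholly above them for Hes1 and Hes5, while the groups overlap for the other 6 genes.

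Notch2 encodes a receptor that is broadly expressed in developing epithelia and mesenchyme. The gene (ENSMUSG00000027878) is on chromosome 3 in GRCm38, from 98013527 to 98150361 on the plus strand, and its longest coding transcript has 34 exons. Notch2 had 116, 91.6, 110 and 115 CPM in CHIR99021 replicates 1 to 4, against 155, 141, 119 and 172 CPM in control replicates 1 to 4. The highest CHIR99021 library stayed below the lowest control library, replicate 3, by a small margin. Notch2 averaged 108 ± 11.3 CPM in CHIR99021 and 147 ± 22.4 CPM in control (SD, n = 4 each). The log2 fold change of Notch2 was -0.43 (standard error 0.11, 95% confidence interval -0.67 to -0.19, limma adjusted p = 0.0113). Within replicates 1 and 4 Notch2 had -0.50 (limma adjusted p = 0.00479), and within replicates 2 and 3 -0.37 (limma adjusted p = 0.0757).

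Notch4 encodes a receptor best known from endothelial cells. It (ENSMUSG00000015468) is on chromosome 17, from 34564268 to 34588503 on the plus strand, with 30 exons in its longest coding transcript. Notch4 had 7.04, 6.09, 5.68 and 6.63 CPM in CHIR99021 replicates 1 to 4, against 8.74, 10.1, 8.04 and 10.0 CPM in control replicates 1 to 4. Every CHIR99021 library was below every control library. The log2 fold change of Notch4 was -0.47 (standard error 0.11, 95% confidence interval -0.71 to -0.24, limma adjusted p = 0.00663). Within replicates 1 and 4 Notch4 had -0.40 and within replicates 2 and 3 -0.54, and neither passed the limma test (adjusted p = 0.0617 and 0.0982). The standard errors of these smaller fits were 0.13 and 0.19, against 0.11 with all libraries. Of 11 tested markers of endothelial cells, 1 fell and none rose. The marker that fell was Emcn, a sialomucin of capillaries and veins, with a log2 fold change of -0.89 (limma adjusted p = 7.66e-05). The defining endothelial markers Cdh5 and Pecam1 did not pass, with log2 fold changes of -0.02 and -0.20. The 11 tested markers lay on both sides of 0, from -0.89 for Emcn to 0.15 for Flt1, with a median of -0.02. The 12 listed endothelial genes together had 108 to 127 CPM in CHIR99021 libraries and 113 to 155 CPM in control libraries, and none was at 0 throughout. The part of endothelial cells in the lower level of Notch4 was not tested.

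Notch1, which in the cochlea is the receptor most closely tied to lateral inhibition between hair cells and supporting cells, is on chromosome 2, from 26457903 to 26516663 on the minus strand (ENSMUSG00000026923). Notch1 had 227, 193, 240 and 247 CPM in CHIR99021 replicates 1 to 4, against 210, 234, 201 and 253 CPM in control replicates 1 to 4. The groups overlapped throughout. Its log2 fold change was 0.01 with a 95% confidence interval of -0.19 to 0.21 (limma adjusted p = 0.935). Notch3, a receptor known from mural cells of vessels and from progenitors, is on chromosome 17, from 32120820 to 32166852 on the minus strand (ENSMUSG00000038146). Notch3 had 223, 205, 223 and 245 CPM in CHIR99021 replicates 1 to 4, against 204, 229, 195 and 250 CPM in control replicates 1 to 4. The order of the libraries resembled that of Notch1, with replicate 4 the highest of both groups. The log2 fold change of Notch3 was 0.03 with a 95% confidence interval of -0.15 to 0.22 (limma adjusted p = 0.792). Markers of mural cells moved in the same samples, with 4 of 6 tested lower and none higher. Their 8 listed genes together had 239 to 438 CPM in CHIR99021 libraries and 376 to 488 CPM in control libraries, with none at 0 throughout. The part of mural cells in the level of Notch3 was not tested. Antisense genes overlap 7.50% of the exons of Notch1 (0610009E02Rik, at a mean of 2.15 CPM) and 6.03% of those of Notch3 (Gm17276, at 0.263 CPM), and whether reads were counted by strand is not given in the sources used here.

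Because the receptor genes share each library, their proportions were compared within libraries, with CPM divided by the length of the merged exons. Notch3 made up 50.9% ± 1.28 of the summed receptor level in CHIR99021 and 47.0% ± 1.18 in control (SD, n = 4 each). Notch1 made up 29.2% ± 0.964 in CHIR99021 and 27.4% ± 0.702 in control. Notch2 made up 18.4% ± 0.804 in CHIR99021 and 23.6% ± 1.92 in control. Notch4 was a minor receptor gene, with 1.45% ± 0.147 in CHIR99021 and 1.99% ± 0.101 in control. The receptor RNA of these explants was thus led by Notch3 and Notch1 in both groups, with a lower Notch2 share in CHIR99021. Receptor protein was not measured. The shares of a library sum to the whole, so a lower share of one gene raises the others, and the shares are given as a description. Over the lengths of the longest coding transcripts, the order of the receptor genes was the same, but the sizes of the shares moved. Notch3 then made up 44.3% in CHIR99021 and 41.2% in control, and Notch1 37.8% in CHIR99021 and 35.7% in control.

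**Figure D2:**
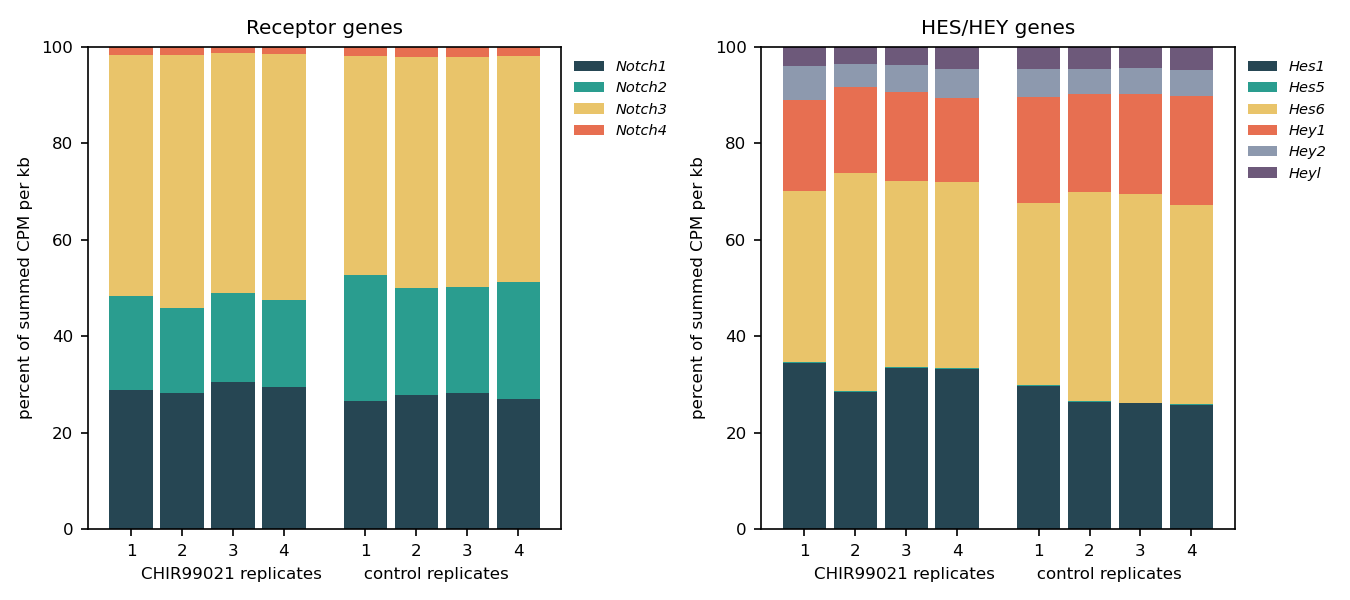
Share of each gene in the summed CPM per kb of merged exons of its class in each library (percent, stacked to the whole), for the 4 receptor genes and the 6 HES/HEY genes, with CHIR99021 libraries left of control libraries. The Notch2 share is 17.6 to 19.5% in CHIR99021 libraries and 22.0 to 26.0% in control libraries, and Hes5 is too small a share to see.

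Hes1 encodes the repressor through which Notch holds progenitors undifferentiated in many tissues, and it is induced by other pathways too. It (ENSMUSG00000022528) is on chromosome 16, from 30064384 to 30067796 on the plus strand, with 4 exons in its longest coding transcript. Hes1 had 44.0, 39.1, 47.0 and 44.2 CPM in CHIR99021 replicates 1 to 4, against 31.4, 32.8, 34.1 and 30.0 CPM in control replicates 1 to 4. The lowest CHIR99021 library, replicate 2, was above the highest control library, replicate 3. Hes1 averaged 43.6 ± 3.27 CPM in CHIR99021 and 32.1 ± 1.75 CPM in control (SD, n = 4 each). The log2 fold change of Hes1 was 0.43 (standard error 0.072, 95% confidence interval 0.27 to 0.59, limma adjusted p = 0.00113). Within replicates 1 and 4 it was 0.51 (limma adjusted p = 0.00594), and within replicates 2 and 3 it was 0.35 (limma adjusted p = 0.0913).

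Hey2, a HES-related repressor of the prosensory domain and later of supporting cells, is on chromosome 10, from 30832359 to 30842801 on the minus strand (ENSMUSG00000019789). Hey2 had 20.5, 15.4, 17.3 and 18.4 CPM in CHIR99021 replicates 1 to 4, against 13.8, 14.6, 15.8 and 14.3 CPM in control replicates 1 to 4. CHIR99021 replicate 2 lay below control replicate 3, so the groups overlapped, while each CHIR99021 library was above the control library of the same number. The log2 fold change of Hey2 was 0.27 (standard error 0.095, 95% confidence interval 0.06 to 0.48, limma adjusted p = 0.0490). This call was at the edge of the test, and an exact two-sided permutation test over the 8 libraries gave p = 0.0571. Hey2 had 0.44 within replicates 1 and 4 (limma adjusted p = 0.0260) and 0.10 within replicates 2 and 3 (limma adjusted p = 0.686). It did not pass without control replicate 1, 2 or 4 (limma adjusted p = 0.109, 0.0887 and 0.0985) or without CHIR99021 replicate 1, 3 or 4 (limma adjusted p = 0.142, 0.0792 and 0.110). It passed with TMM scaling (0.32, limma adjusted p = 0.0217), with edgeR on recovered reads (0.36, adjusted p = 0.0223) and with the replicate number as a block (limma adjusted p = 0.0431).

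Markers of the epithelium in which Hes1 and Hey2 are known to act moved in both directions in the same samples. Of 12 cochlear and prosensory genes 3 rose and 6 fell, or 5 fell with TMM scaling. The 3 that rose were Jag1 (1.25 on the log2 scale), Fgf10 and Prox1. Without 1 library, Fgf10 ranged from 0.41 to 0.55 and Prox1 from 0.30 to 0.40, and both passed in 8 of 8 limma fits. Among the 6 that fell, Sox2, the transcription factor that marks the prosensory domain, fell by 0.38 on the log2 scale (limma adjusted p = 0.0111). Gata3, another factor of the cochlear duct, fell by 0.33 (limma adjusted p = 0.00440). The 12 genes summed to 1377 to 1465 CPM in CHIR99021 libraries and 1365 to 1513 CPM in control libraries, with Jag1 and Lfng also counted in the pathway lists by role. This sum holds the rise of Jag1, which averaged 385 CPM in CHIR99021 and 162 CPM in control. It therefore does not show that the other genes kept their level, and the median log2 fold change of the 12 was -0.21. Of 8 epithelial genes 1 rose and 3 fell, or 1 fell with TMM scaling. These 8 summed to 1105 to 1149 CPM in CHIR99021 libraries and 1089 to 1297 CPM in control libraries. No gene of either list was at 0 throughout, and the part of these cells in the levels of Hes1 and Hey2 was not tested.

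Hes5 encodes a repressor that in the cochlea is induced by Notch around nascent hair cells. It (ENSMUSG00000048001) is on chromosome 4, from 154960923 to 154962371 on the plus strand, just after the window with the pair of RBPJ core matches shown above. Since each CPM value is a whole number of reads, the counts could be recovered. Hes5 had 21, 21, 11 and 15 reads in CHIR99021 replicates 1 to 4, against 4, 6, 6 and 8 reads in control replicates 1 to 4. As CPM this was 0.278, 0.324, 0.154 and 0.226 in CHIR99021 and 0.0448, 0.0902, 0.0720 and 0.0989 in control. Every CHIR99021 library was above every control library, at a CPM far below that of Hes1 in each of them. Pooled over the libraries, 68 reads in CHIR99021 against 24 in control give a rate ratio of 3.26 (exact 95% interval 2.02 to 5.42, for counting error only). An exact two-sided permutation test over the 8 libraries returned p = 0.0286, below which this design cannot go. edgeR on the recovered reads gave a log2 fold change of 1.73 with an adjusted p = 0.0913, which did not pass. Limma without the filter on low values gave 0.21 on the log2(CPM + 1) scale with an adjusted p = 0.0142. The antisense gene Gm20421 overlaps 433 bp, or 31.8%, of the Hes5 exons. It had 1 to 3 reads in CHIR99021 libraries and 0 to 15 reads in control libraries. The libraries were made with a stranded kit.

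Hes6, Hey1 and Heyl did not pass the test. Hes6 encodes a HES protein that opposes HES1 and promotes neuronal differentiation. It is on chromosome 1 from 91411483 to 91414038, and had 40.3 to 55.2 CPM in CHIR99021 libraries and 35.4 to 50.2 CPM in control libraries, with a log2 fold change of 0.11 (95% confidence interval -0.15 to 0.36). Hey1, a repressor that in the cochlea acts with Hey2 to delay differentiation, is on chromosome 3 from 8663359 to 8667256. It had 37.3 to 41.6 CPM in CHIR99021 libraries and 37.1 to 43.4 CPM in control libraries, with a log2 fold change of -0.05 (95% confidence interval -0.20 to 0.09). Hey1 had the narrowest interval of the family. Heyl, the third gene of the HEY group, is on chromosome 4 from 123233556 to 123249875. It had 11.9 to 14.9 CPM in CHIR99021 libraries and 12.3 to 14.1 CPM in control libraries, with a log2 fold change of -0.04 (95% confidence interval -0.25 to 0.16).

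**Figure D3:**
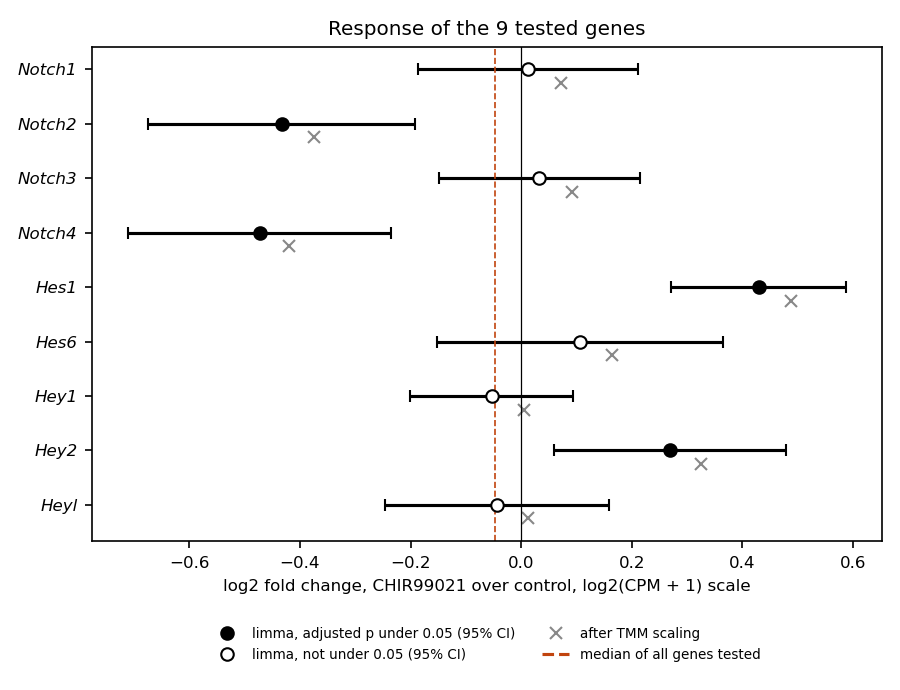
Log2 fold change of CHIR99021 over control for the 9 tested genes, on the log2(CPM + 1) scale, with the 95% confidence interval from limma (filled circles, adjusted p under 0.05), the value after TMM scaling (crosses) and the median over all genes tested (dashed line). Notch2 and Notch4 lie at -0.43 and -0.47 and Hes1 and Hey2 at 0.43 and 0.27, while the intervals of the other 5 genes include 0, and those of Hey1 and Heyl change sign after TMM scaling.

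Whether one gene responded differently from another was asked with 8 ratios within libraries, of Notch2, Notch3 and Notch4 to Notch1 and of the 5 other effector genes to Hes1. Notch2 relative to Notch1 was -1.06 ± 0.0705 in CHIR99021 and -0.62 ± 0.151 in control on the log2(CPM + 1) scale (SD, n = 4 each), a difference of -0.45. The difference was -0.49 for Notch4 to Notch1, -0.48 for Hey1 to Hes1 and -0.47 for Heyl to Hes1. In these 4 ratios the groups differed with p = 0.0286 by an exact two-sided permutation test, the smallest the design allows, and with p = 0.0571 after adjustment over the 8 ratios, which does not pass. With 4 of the 8 ratios at the smallest p, the adjusted value could go no lower. Not passing therefore does not show that these ratios were alike in the groups. These 4 ratios and that of Hes6 to Hes1 were lower in CHIR99021 in 4 of 4 same-numbered pairs, with -0.55 to -0.34 for Notch2 to Notch1. A test within the pairs, by exact sign flips, cannot go below p = 0.125 with 4 pairs, which these 5 ratios reached. Hes6 to Hes1 differed by -0.32 (exact permutation p = 0.0571, adjusted 0.0914) and Hey2 to Hes1 by -0.16 (exact permutation p = 0.0857, adjusted 0.114). Notch3 to Notch1 was -0.02 ± 0.0779 in CHIR99021 and -0.04 ± 0.0131 in control, a difference of 0.02 (exact permutation p = 0.629). The ratio of Hes5 to Hes1 is not informative on this scale, because a pseudocount of 1 exceeds the Hes5 level, and its sign turned with a pseudocount of 0.25.

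Levels between the genes were compared as CPM per kb of merged exons. Notch3 stood at 27.7 ± 1.99 CPM per kb in CHIR99021 and 27.1 ± 3.08 CPM per kb in control (SD, n = 4 each). Hes6 was next, with 26.2 ± 3.42 in CHIR99021 and 24.3 ± 3.63 in control, and was below Notch3 in 6 of 8 libraries only, so these neighbors did not differ beyond their spread. Hes1 had 21.4 ± 1.61 CPM per kb in CHIR99021 and 15.7 ± 0.861 in control, and Notch1 had 15.9 ± 1.67 in CHIR99021 and 15.8 ± 1.65 in control, so that Hes1 was above Notch1 in 6 of 8 libraries. Hey1 followed with 12.0 ± 0.547 in CHIR99021 and 12.5 ± 0.846 in control, beside Notch2 with 10.0 ± 1.04 in CHIR99021 and 13.6 ± 2.08 in control. Hey1 was above Notch2 in 5 of 8 libraries, and the ranges of the pair overlapped. Below them the order was the same in 8 of 8 libraries, with Hey2 at 3.90 CPM per kb in CHIR99021 and 3.19 in control. Heyl had 2.58 in CHIR99021 and 2.66 in control, Notch4 0.789 in CHIR99021 and 1.14 in control, and Hes5 0.180 in CHIR99021 and 0.0561 in control. With the length of the longest coding transcript instead, Hes6 stood above Notch3 in 8 of 8 libraries and the order from Hes1 downward was the same.

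The other genes of the Notch pathway were read in 6 lists by their role. Over all genes tested 12.3% rose and 21.4% fell, and each list is too small for its count to be a result about the role. The same holds for the lists of cell type markers. Of 6 tested ligand genes, Jag1 rose and the gene of the noncanonical ligand Dner fell. Jag1, the ligand of the prosensory domain, averaged 385 ± 32.7 CPM in CHIR99021 and 162 ± 10.1 CPM in control (SD, n = 4 each), with 1.25 as its log2 fold change (limma adjusted p = 1.44e-06). Dner had a log2 fold change of -0.61 (limma adjusted p = 0.000116), and Dll1, a ligand of nascent hair cells, had -0.22 (limma adjusted p = 0.349). Dlk1 was at 0 in every library. Of 9 genes for receptor cleavage 3 fell and none rose, beside 21.4% lower and 12.3% higher over all genes tested. The 3 were Aph1c and Ncstn, subunits of gamma-secretase, and Furin, the protease that processes the receptor during its maturation. The log2 fold changes were -0.48 for Aph1c, -0.16 for Ncstn and -0.35 for Furin. After TMM scaling 2 of the 9 fell, without Ncstn, and with edgeR 1 fell, Furin, so the smaller changes depend on the setting. Furin passed in each of the 8 fits that leave out 1 library, Aph1c in 3 and Ncstn in 1. The median log2 fold change of these 9 genes was -0.19, against -0.047 over all genes tested.

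In the nuclear complex 2 of 9 genes rose and 2 fell, beside 12.3% and 21.4% of all genes tested. Rbpj itself had a log2 fold change of 0.09 (limma adjusted p = 0.534). Maml3, a Mastermind coactivator, averaged 35.4 ± 1.59 CPM in CHIR99021 and 54.4 ± 2.26 CPM in control (SD, n = 4 each), with a log2 difference of -0.60 (limma adjusted p = 4.09e-05). Maml1 had -0.18 (limma adjusted p = 0.0176), which did not pass after TMM scaling (adjusted p = 0.0778). Kat2a, a histone acetyltransferase, and Spen, a corepressor that binds RBPJ, rose by 0.20 and 0.24 on the log2 scale, and without 1 library Spen passed in 3 of 8 fits. Of 18 tested modulators 5 fell and none rose, and after TMM scaling 2 fell and 2 rose, Mib1 and Fbxw7 being those that rose. Of all genes tested 21.4% fell, and after TMM scaling 16.5% fell and 17.1% rose. With the replicate block 7 fell and 1 rose. The 2 that fell under both were Numbl, which restrains the receptor (-0.70, limma adjusted p = 4.54e-05), and Mib2, a ubiquitin ligase for ligands (-0.35, limma adjusted p = 0.00188). Lfng, the glycosyltransferase of the prosensory domain, averaged 9.21 ± 1.47 CPM in CHIR99021 and 12.5 ± 1.71 CPM in control (SD, n = 4 each), and passed before TMM scaling (-0.41, limma adjusted p = 0.0356) but not after it (adjusted p = 0.0630). Nrarp, which Notch induces and which in turn destabilizes the Notch complex, averaged 19.1 ± 2.83 CPM in CHIR99021 and 24.5 ± 3.14 CPM in control, with -0.35 (limma adjusted p = 0.0475, and 0.0864 after TMM scaling). Nrarp, Lfng and Neurl1b each passed in only 2 of the 8 limma fits that leave out 1 library.

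Of the other repressors of the HES, BHLHE and ID groups, 6 were tested and none passed with limma or edgeR. After TMM scaling 2 rose, Bhlhe40 and Id4, and with the replicate block 3 rose, these and Id2. Bhlhe40, a repressor that also responds to hypoxia and the clock, had a log2 fold change of 0.37 (limma adjusted p = 0.0619), Id4 0.22 (0.104) and Id2 0.17 (0.151). Hes3 was at 0 in every library, and Hes2, Hes7 and Helt were below the limit. Of 5 tested proneural genes, which HES proteins repress, 1 rose and 2 fell. Atoh1, which starts hair cell differentiation, averaged 3.39 CPM in CHIR99021 and 1.80 CPM in control and rose by 0.61 on the log2 scale (limma adjusted p = 0.0341), while Nhlh1 and Nhlh2, of neuronal precursors, had -0.77 (limma adjusted p = 0.0281) and -0.72 (limma adjusted p = 0.0356). With edgeR neither Nhlh1 nor Nhlh2 passed (adjusted p = 0.0897 and 0.0979), and each of these 3 genes passed in only 2 or 3 of the 8 limma fits without 1 library. Markers of neurons and glia moved in the same samples. Of 11 tested neuronal markers 3 fell and none rose, and the 12 listed summed to 162 to 192 CPM in CHIR99021 libraries and 250 to 284 CPM in control libraries. Isl1 alone averaged 64.4 CPM in CHIR99021 and 118 CPM in control, and the paper uses Isl1Cre to delete genes in the cochlea itself. Stmn2 and Nefl also fell, by log2 fold changes of -1.16 and -1.13. Among the 8 that did not pass were Tubb3 and Elavl4, with -0.05 and -0.06. Of 7 tested glial markers 4 fell and none rose, and the 9 listed summed to 473 to 506 CPM in CHIR99021 libraries and 659 to 720 CPM in control libraries. No gene of these 2 lists was at 0 throughout, and the part of neurons and glia in the levels of the Notch genes was not tested. Periotic mesenchyme, with 2 of 9 tested markers higher and 5 lower, summed to 4162 to 4765 CPM in CHIR99021 libraries and 5031 to 6376 CPM in control libraries, and its part was likewise not tested.

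**Figure D4:**
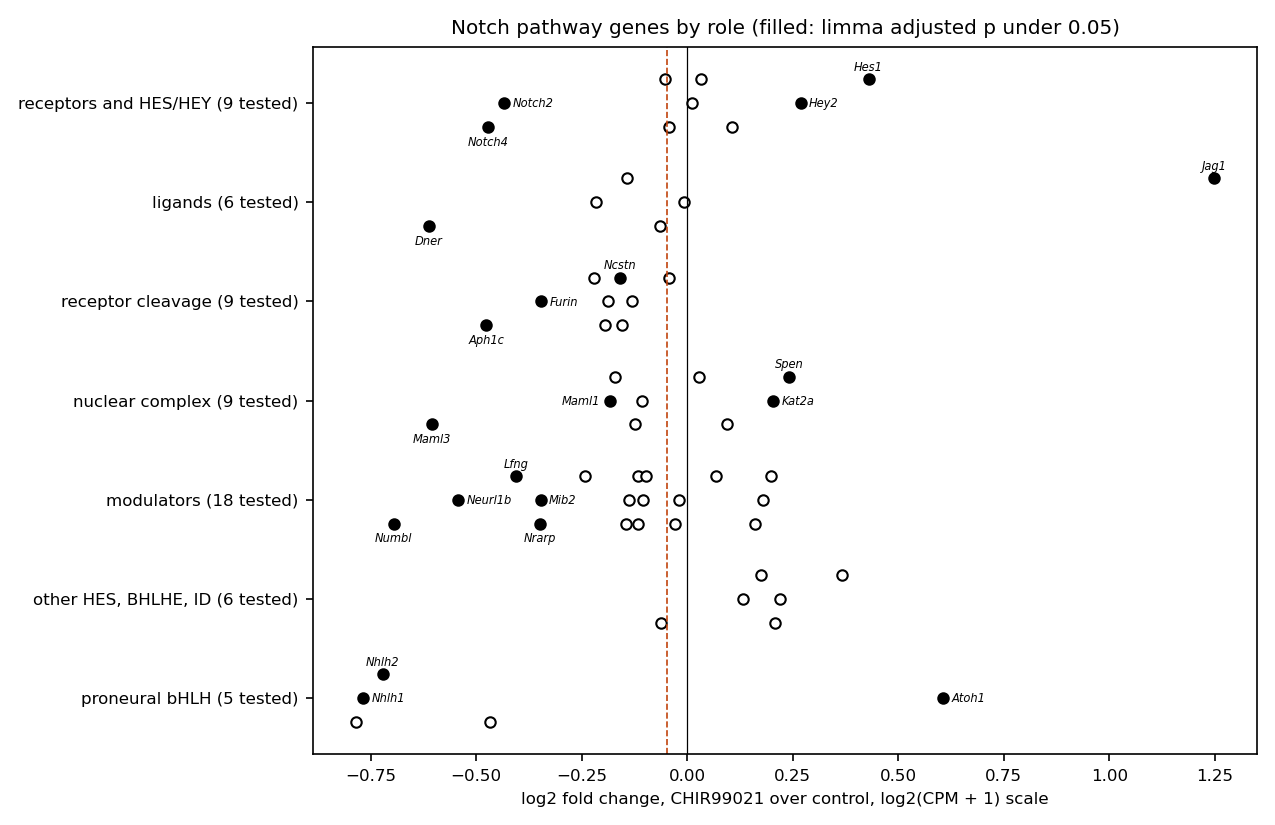
Log2 fold change of CHIR99021 over control (horizontal axis, log2(CPM + 1) scale) for each tested gene of the pathway, in rows by role; filled circles passed the limma test at an adjusted p of 0.05, and the dashed line is the median over all genes tested. Jag1 lies farthest to the right at 1.25, the 9 cleavage genes lie left of 0 (8 of them, without Aph1b, after TMM scaling), and the receptor and HES/HEY genes fall on both sides.

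The genes most like each of the 9 across the 8 libraries were taken by Pearson r of log2(CPM + 1) among all genes tested, as a description, since with 8 libraries in 2 groups many genes reach a high r. For Hes1 they were Pde3b, Ing5 and Polr1e (r = 0.990, 0.989 and 0.988). For Notch2 they were Eml2, Abca7 and BB218582 (r = 0.988, 0.986 and 0.986), and for Notch4 Fes, Grik5 and Slc44a2 (r = 0.985, 0.984 and 0.984). Those most like Notch3 included D11Wsu47e (r = 0.937) and Notch1 itself (r = 0.928), and those most like Notch1 included Zmiz1 and Tnc (r = 0.944 for each). Hey2 was followed by Myg1, Ripk3 and Usp44 (r = 0.960, 0.948 and 0.937) and Hes6 by Dgcr6, Psmb7 and Ubl4 (r = 0.985, 0.976 and 0.975). Hey1 was followed by Atp9a, Ap1s1 and Emd (r = 0.982, 0.954 and 0.945) and Heyl by Sel1l3, Lmntd1 and Bcl2 (r = 0.945, 0.945 and 0.872). Libraries of the same number shared part of their deviation, which enters each r.

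The response to CHIR99021 was also compared between the sexes, with 2 libraries per sex and group. No gene passed for a difference of the response, which is 0% of those tested, with limma or with edgeR. An unadjusted p under 0.05 was reached by 181 of 14264 genes with limma and 332 of 22643 with edgeR. Both are a smaller share than the 0.05 that such a threshold marks by chance, so these counts are no sign of a sex difference. For Hes1 the male minus female difference in log2 fold change was -0.07 (95% confidence interval -0.40 to 0.27). The difference of Notch1 was -0.33 (95% confidence interval -0.71 to 0.04). Its means were 220 CPM in male CHIR99021 and 244 CPM in male control libraries, and 233 CPM in female CHIR99021 and 206 CPM in female control libraries. Notch3 had a difference of -0.26 (95% confidence interval -0.57 to 0.06). Notch2 had a difference of -0.33 (95% confidence interval -0.83 to 0.17). With the replicate block the intervals were -0.60 to -0.07 for Notch1, -0.60 to -0.06 for Notch2 and -0.48 to -0.03 for Notch3, but over all genes none of these passed (limma adjusted p = 1.00 for each).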

How the data were processed

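Stranded polyA libraries of 75 bp paired-end fragments were mapped by the authors to GRCm38 (Ensembl release 91) with HISAT2. The counting tool is not given in the sources used here. The deposited values are CPM, 1 line per gene and without pooling of replicates, and the deposited table also holds the authors' fold changes, p-values and false discovery rates for all, male and female libraries, which were not used. Each value was a whole multiple of 1 step per library within 0.001 read (100% of values), and 1 read was worth 0.0112 to 0.0154 CPM. Gene identifiers were matched to GENCODE M21 (99.5%) for position and length.

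The main test was limma 3.58.1 with an intensity trend, run on log2(CPM + 1) of the genes that averaged 1 CPM or more and adjusted over all of them by Benjamini-Hochberg. edgeR 4.0.16, a quasi-likelihood test with TMM factors on recovered reads with a total of at least 10 reads, was an alternative. Others were a pseudocount of 0.25, no filter, TMM scaling, a replicate block, either side of the replicates, and leaving out each library. Libraries of the same replicate number deviated together (r of 0.51, 0.25, 0.35 and 0.34 for replicates 1 to 4), so the numbers pair the samples by the data, while the labels state no pairing. The functions were tested on simulated data. The 10 genes, the gene lists and the tests were chosen with earlier results of these data known. Named genes were each of the 10, the 3 genes of each pathway list with the smallest p, any at 0, and the 3 most like each tested gene. Some genes of these lists are not reported here. Any further gene in the text was picked with its values in view.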

Additional observations from a re-analysis of the deposited data

Results flagged for a closer look

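Heyl in control replicate 1, at 12.3 CPM, was far from the other control libraries, which lay close together with a highest value of 14.1 CPM. Its gap to the nearest of them was 0.929 of the range of the group, above Dixon's 95% critical value for 4 samples. It was the 1 group so marked of 20 checked, where chance marks about 1 in 20. Without control replicate 1, Heyl had a log2 fold change of -0.09 (limma adjusted p = 0.547).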

How the results depend on the processing

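Hes1, Notch2 and Notch4 kept their direction and passed with a pseudocount of 0.25, no filter, TMM scaling, edgeR on recovered reads, the replicate block and without any 1 library, and Hey2 did not pass without the filter (0.27, limma adjusted p = 0.0888). The replicate block left 4 of the 9 genes passing, as in the fit without it, and changed none of the 9 calls. Exact sign flips within the pairs, chosen after seeing the data, gave adjusted p = 0.2 to 0.625 for the 8 ratios. Within replicates 2 and 3 alone, 0 of the 9 passed and 1656 genes passed in all, and within replicates 1 and 4 alone 3 passed, without Notch4, and 3306 genes passed in all. Leaving out 1 library gave 3 to 4 of the 9, and 3898 to 4595 genes in all. The sex difference had 2 genes passing with the replicate block, neither of them among the 10, and 0 to 1 without any 1 library.

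Signs turned only for genes that did not pass. Notch1 had -0.013 within replicates 2 and 3 and -0.038 to 0.086 without 1 library, and Notch3 -0.021 to 0.098 without 1 library. Hey1 had 0.0049 with TMM scaling and 0.017 with edgeR, and Heyl 0.012, 0.029 and, within replicates 1 and 4, 0.050. Heyl ranged from -0.10 to 0.0017 without 1 library. The ratio of Hes5 to Hes1 differed by 0.15 with a pseudocount of 0.25 and by -0.22 with 1. The difference of Notch3 to Notch1 was -0.012 without CHIR99021 replicate 2. The causes were not tested. Depth limits Hes5, where 4 to 21 reads per library carry the comparison.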
